A study of Mus musculus with 23 samples.

Results

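Glycolysis and the pentose phosphate pathway were followed through 32 genes in mouse embryoid bodies (EBs), suspended cell aggregates in which differentiation starts once the cytokine LIF is removed, and in embryonic stem cells (ESCs). The genes were chosen by symbol, as the glucose and lactate transporters, enzymes and pathway kinases named below, and all 32 were found among the 29032 symbols of the expression table. The series holds 23 samples, and the 10 RNA-seq libraries used here form 5 groups of 2, while 8 ATAC-seq and 5 ChIP-seq samples were not analysed here. Trim33-null EBs and Trim33 wild-type (WT) EBs, both at day 2.5 and both from ESCs of a C57Bl/6J background, received either activin A at 50 ng/ml for 2 h or SB431542. The last group is ESCs of the wild-type line E14 with activin A. Activin A stimulates the receptors that Nodal uses, SB431542 inhibits the kinase of those receptors, and TRIM33 is a chromatin-binding partner of the SMAD proteins they activate. ESCs grew on gelatin and EBs in suspension without LIF, both in 15% serum. The labels give SB431542 as 10 micromolar in the characteristics but as 10 millimolar in the protocols, and its duration as 1 h in the design text but 2 h in the titles. The ESC titles carry the letters LKO, while their characteristics give wild type, which was followed. The sources used here do not say how the null allele was made or how many clones it represents.

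Glycolysis converts glucose to pyruvate, which lactate dehydrogenase can reduce to lactate for export or which pyruvate dehydrogenase can pass to the mitochondria. The pentose phosphate pathway branches off at glucose 6-phosphate: its oxidative arm makes NADPH, and its non-oxidative arm interconverts sugar phosphates and supplies ribose 5-phosphate for nucleotides. Pluripotent cells are known for high glycolytic activity, and many of these genes are targets of the hypoxia-inducible factor HIF-1.

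Values are in FPKM, which corrects a fragment number for transcript length and for the size of the library. Summed FPKM ran from 236760 to 251652 per library, and 10262 to 10846 symbols reached 1 FPKM. Read depth is unknown, so no interval for counting error can be given. Trim33 itself stood at 2.23 to 2.83 FPKM in the 4 Trim33-null libraries, against 10.1 to 11.4 FPKM in the 4 WT EB libraries, and E14 ESCs had 6.25 and 6.60 FPKM. The Y-linked gene Eif2s3y stood at 0.0922 to 0.369 FPKM in Trim33-null EBs, against 9.49 to 10.5 FPKM in WT EBs, so loss of Trim33 and other differences between the lines cannot be told apart. Of 7 pluripotency markers, 6 or 7 averaged at least 1 FPKM in every group, while 0 of 7 extraembryonic endoderm markers did in any. Separate cultures within a group are not stated in the labels, and p-values therefore cover nothing beyond the spread of these samples, possibly a technical one. Permuting 2 against 2 libraries yields a two-sided p of 0.333 at best, and every call here comes from limma, which pools the spread over groups and genes.

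Levels of the 32 genes covered a wide range on the FPKM scale. Gapdh, which oxidises glyceraldehyde 3-phosphate, had the highest level at a mean of 1340.0 FPKM over the 10 libraries and ranked at 14 among all symbols. Pkm, for the last ATP-making step, averaged 773 FPKM, the mutase gene Pgam1 428 FPKM and the enolase gene Eno1 387 FPKM. The lowest levels were those of Eno2, the enolase of neurons, at 1.06 FPKM, and of the hexokinase gene Hk1 at 1.62 FPKM. Together the 32 genes held between 1.54% and 2.14% of the summed FPKM of a library.

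Enzymes with several isoforms differed in how evenly their genes shared the FPKM. Aldoa held 99.0% to 99.5% of the FPKM of Aldoa plus Aldoc over the groups. No share is given for enolase, since the table also lists Eno1b, a near-identical copy of Eno1, at a mean of 835 FPKM. Hk2, the inducible hexokinase, held 88.1% ± 1.1 of hexokinase FPKM in Trim33-null EBs and 88.8% ± 0.034 in WT EBs under activin, and 90.2% ± 0.061 in ESCs (SD, n = 2 each). Pfkl, the liver-type phosphofructokinase, held 72.7% ± 1.7 in Trim33-null EBs and 76.7% ± 1.1 in WT EBs under activin, and 65.1% ± 0.18 in ESCs. Lactate dehydrogenase differed more between groups: Ldha, the subunit that favours lactate production, held 63.1% ± 0.93 of Ldha plus Ldhb in Trim33-null EBs under activin, 78.3% ± 0.56 in WT EBs under activin and 87.3% ± 0.60 in ESCs.

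Across all 10 libraries the steadiest gene was Slc16a1, which encodes the lactate transporter MCT1, with 23.3 to 26.8 FPKM. The most variable was Eno2, whose highest value was 10.9 times its lowest. Rpia, which encodes ribose 5-phosphate isomerase, followed at 7.86 times, and Pfkp, the platelet-type phosphofructokinase, at 7.35 times.

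**Figure D1:**
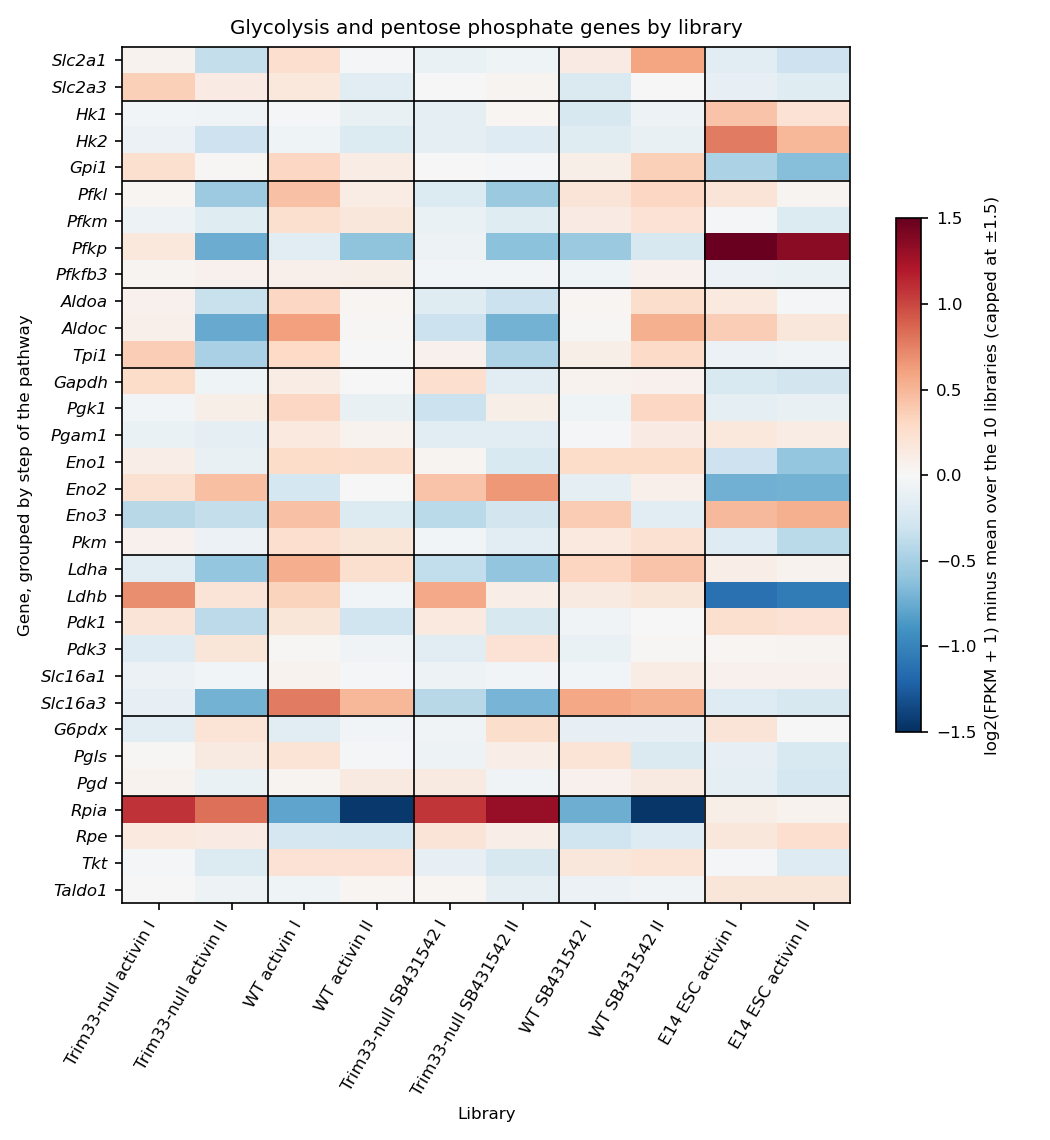
Heat map of the 32 genes (rows, grouped by step of the pathway) in the 10 libraries (columns), as log2(FPKM + 1) minus the gene's mean over the libraries, with colours capped at ±1.5. Rpia is above its mean in the 4 Trim33-null libraries and below it in the 4 WT EB libraries, while Pfkp and Hk2 are above theirs in the ESCs.

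The comparison of Trim33-null with WT EBs asks which of these genes differ between the genotypes. Genes of the non-oxidative pentose phosphate arm were higher or lower by gene: Rpia and Rpe rose in Trim33-null EBs under both treatments, and Tkt fell under SB431542. Ldha and Slc16a3, which make and export lactate, fell under both treatments. Pfkm, the muscle-type phosphofructokinase, fell under activin. In all, 2 of 32 genes rose and 3 fell under activin (15.6% called), where 8.09% of the 11317 genes tested were called, 3.4% higher and 4.68% lower (limma, Benjamini-Hochberg adjusted p under 0.05). Under SB431542 again 2 rose and 3 fell (15.6%), against 8.08% of all genes, 4.08% higher and 3.99% lower. The median difference of the 32 genes was -0.08 under each treatment on the log2(FPKM + 1) scale, against -0.03 and -0.02 over all genes tested.

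Rpia converts ribulose 5-phosphate to ribose 5-phosphate. It had 36.4 and 30.3 FPKM in Trim33-null EBs under activin, against 9.21 and 5.49 FPKM in WT EBs. Under SB431542 it had 36.2 and 42.6 FPKM in Trim33-null EBs, against 9.62 and 5.41 FPKM in WT EBs. All 4 Trim33-null libraries had at least 30.3 FPKM and all 4 WT EB libraries at most 9.62 FPKM, and the ESCs stood between them at 17.8 and 17.3 FPKM. The ratio of means was 4.54 under activin and 5.24 under SB431542. On the log2(FPKM + 1) scale the difference was 2.07 ± 0.30 (SE, limma adjusted p = 0.0168) with activin and 2.29 ± 0.30 (limma adjusted p = 0.0127) with SB431542.

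Rpe encodes the epimerase that turns ribulose 5-phosphate into xylulose 5-phosphate. Its FPKM was 12.4 and 12.3 in Trim33-null EBs under activin, against 9.16 and 9.14 in WT EBs, and 12.9 and 12.0 under SB431542, against 8.85 and 9.63. No Trim33-null library overlapped a WT library. The difference was 0.40 ± 0.07 (SE, limma adjusted p = 0.0242) with activin and 0.39 ± 0.07 (limma adjusted p = 0.0235) with SB431542, smaller than that of Rpia. The ratio of Rpia to Rpe FPKM was 2.93 and 2.47 in Trim33-null EBs, against 1.01 and 0.601 in WT EBs under activin. Under SB431542 it was 2.81 and 3.54 in Trim33-null EBs, against 1.09 and 0.562 in WT EBs.

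Tkt, the transketolase that moves carbon units between sugar phosphates, ran the other way. It had 31.6 and 27.8 FPKM in Trim33-null EBs under activin, against 37.5 and 37.4 in WT EBs. Under SB431542 it had 29.5 and 26.97 FPKM in Trim33-null EBs, against 36.1 and 37.1 in WT EBs. Groups did not overlap under either treatment, and the difference passed under SB431542 (-0.36 ± 0.08, limma adjusted p = 0.0495) but not under activin (-0.32 ± 0.08, limma adjusted p = 0.064). Taldo1, the transaldolase that works beside it, had 35.8 to 40.2 FPKM in the Trim33-null libraries, against 37.0 to 40.2 FPKM in the WT EB libraries, and its differences of -0.01 and 0.02 did not pass. The oxidative arm did not pass either: G6pdx, which encodes the entry enzyme glucose 6-phosphate dehydrogenase, differed by 0.12 and 0.23, and Pgls and Pgd by between -0.11 and 0.02.

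Promoters of 4 called genes that have a single window in RefSeq are shown to let the start regions of the genes that rose and fell be set side by side. Each window runs from 250 bases before to 50 bases after the start in GRCm38.p6, 5′ to 3′ on the gene's strand. Capitals mark ACGTG or GCGTG on either strand, the cores bound by hypoxia-inducible factors. Rpia lies at chr6:70792126-70792425 on the minus strand, and Rpe at chr1:66700581-66700880, Tkt at chr14:30548881-30549180 and Slc16a3 at chr11:120948817-120949116 on the plus strand.
Rpia: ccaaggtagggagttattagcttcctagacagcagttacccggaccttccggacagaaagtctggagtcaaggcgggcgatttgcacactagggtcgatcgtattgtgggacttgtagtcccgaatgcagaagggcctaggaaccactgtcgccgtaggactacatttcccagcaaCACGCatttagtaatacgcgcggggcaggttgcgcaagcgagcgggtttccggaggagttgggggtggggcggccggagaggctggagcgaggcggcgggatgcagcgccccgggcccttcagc
Rpe: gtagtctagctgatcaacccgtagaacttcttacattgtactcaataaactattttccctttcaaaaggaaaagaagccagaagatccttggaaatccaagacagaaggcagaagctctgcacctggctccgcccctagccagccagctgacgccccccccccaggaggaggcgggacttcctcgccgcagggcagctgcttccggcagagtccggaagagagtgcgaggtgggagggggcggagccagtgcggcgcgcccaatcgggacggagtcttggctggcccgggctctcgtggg
Tkt: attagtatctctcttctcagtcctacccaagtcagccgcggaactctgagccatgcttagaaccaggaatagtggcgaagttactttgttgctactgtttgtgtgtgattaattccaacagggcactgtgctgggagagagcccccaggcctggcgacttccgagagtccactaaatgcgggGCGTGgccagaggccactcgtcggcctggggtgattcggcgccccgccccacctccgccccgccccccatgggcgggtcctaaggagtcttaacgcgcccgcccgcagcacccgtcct
Slc16a3: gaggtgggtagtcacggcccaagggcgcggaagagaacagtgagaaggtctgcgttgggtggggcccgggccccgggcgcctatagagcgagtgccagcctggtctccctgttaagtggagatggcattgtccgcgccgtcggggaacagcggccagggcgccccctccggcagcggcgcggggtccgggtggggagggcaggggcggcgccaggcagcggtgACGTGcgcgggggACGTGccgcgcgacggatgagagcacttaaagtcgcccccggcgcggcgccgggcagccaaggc
The Slc16a3 window holds 2 ACGTG cores, the Rpia and Tkt windows hold 1 GCGTG core each, and the Rpe window holds 0 of either. A promoter entry was matched for 31 of the 32 genes, with 45 windows in all, and not for Slc2a3. Read on both strands, ACGTG was in 42.2% of these windows and in 19.6% of all 32851 windows, and GCGTG in 60% against 32.4%. CACGTG, the E-box, which contains ACGTG, was in 8.89% against 7.15%, and CAGACA, which contains the core bound by SMADs, in 13.3% against 21%. The set of all windows was not matched to those of the 32 genes in base composition. These matches describe letters in the windows and are not binding sites.

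Ldha had 247 and 184 FPKM in Trim33-null EBs under activin, against 404 and 327 FPKM in WT EBs. Under SB431542 it had 214 and 183 FPKM in Trim33-null EBs, against 346 and 372 FPKM in WT EBs. All 4 Trim33-null libraries were below all 4 WT libraries, and the difference was -0.76 ± 0.17 (SE, limma adjusted p = 0.0472) with activin and -0.86 ± 0.17 (limma adjusted p = 0.0363) with SB431542. Ldhb, the subunit typical of tissues that oxidise lactate, did not pass. It had 149 and 105 FPKM in Trim33-null EBs under activin, against 115 and 88.7 FPKM in WT EBs, so the groups overlapped (0.30 ± 0.23, limma adjusted p = 0.416). The ratio of Ldha to Ldhb FPKM was 1.66 and 1.76 in Trim33-null EBs, against 3.52 and 3.68 in WT EBs under activin, and 1.57 and 1.87, against 3.45 and 3.57, under SB431542. This ratio is a description and was not tested.

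Slc16a3 encodes MCT4, a transporter that exports lactate from glycolytic cells. It had 18.9 and 12.2 FPKM in Trim33-null EBs under activin, against 36.2 and 29.6 FPKM in WT EBs. Under SB431542 it had 15.2 and 12.4 FPKM in Trim33-null EBs, against 31.4 and 30.4 FPKM in WT EBs. Every Trim33-null library lay below every WT EB library, and the ratio of means was 0.472 under activin and 0.447 under SB431542. The difference was -1.06 ± 0.21 (SE, limma adjusted p = 0.0351) with activin and -1.11 ± 0.21 (limma adjusted p = 0.03) with SB431542. Slc16a1 did not pass, with differences of -0.08 ± 0.07 (limma adjusted p = 0.522) and -0.10 ± 0.07 (limma adjusted p = 0.428). In RefSeq's annotation, 11 protein-coding genes lie between Slc16a1 and Trim33. Pdk1 and Pdk3, the kinases that switch off pyruvate dehydrogenase, differed by between -0.04 and 0.06 and did not pass.

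**Figure D2:**
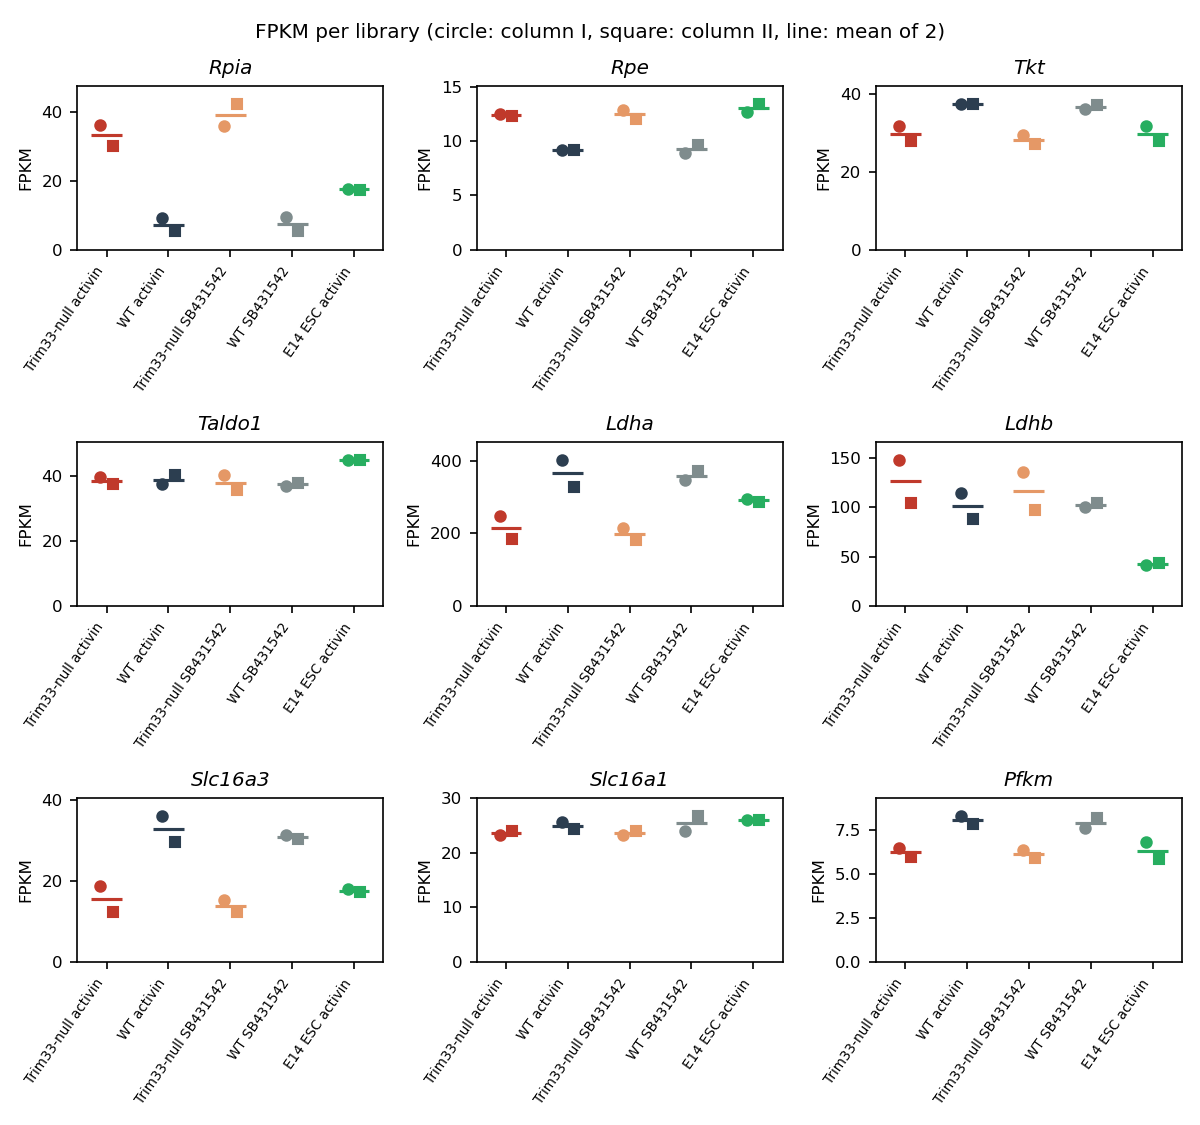
FPKM of 9 genes in each library, with column I as circles, column II as squares and the mean of the 2 as a line. Vertical axes start at 0, and the groups run from Trim33-null activin to E14 ESC activin. Rpia and Rpe lie higher and Ldha and Slc16a3 lower in Trim33-null than in WT EBs, while Taldo1, Ldhb and Slc16a1, which did not pass, are shown as partners.

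Pfkm had 6.48 and 5.95 FPKM in Trim33-null EBs under activin, against 8.30 and 7.82 FPKM in WT EBs, and 6.37 and 5.92, against 7.59 and 8.14 FPKM, under SB431542. Groups did not overlap, and the difference was -0.33 ± 0.07 (SE, limma adjusted p = 0.0463) with activin and -0.31 ± 0.07 with SB431542, which missed the threshold (limma adjusted p = 0.0525). Pfkl had 28.1 and 18.5 FPKM in Trim33-null EBs under activin, against 37.4 and 29.8 FPKM in WT EBs, and its differences of -0.53 ± 0.22 and -0.64 ± 0.22 did not pass (limma adjusted p = 0.177 and 0.127). Eno2 had 1.30 and 1.69 FPKM in Trim33-null EBs under activin, against 0.644 and 0.984 FPKM in WT EBs, and 1.66 and 2.09 FPKM, against 0.775 and 1.08 FPKM, under SB431542. Groups did not overlap, and the differences of 0.46 ± 0.14 and 0.58 ± 0.14 did not pass (limma adjusted p = 0.099 and 0.061). Besides the Trim33-null libraries, only WT SB431542 II reached 1 FPKM, so Eno2 was tested mainly through the group where it was higher.

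For the remaining genes of glucose uptake and the glycolytic trunk, no difference passed. Pkm differed by -0.23 ± 0.08 (limma adjusted p = 0.119) with activin and -0.29 ± 0.08 (limma adjusted p = 0.0753) with SB431542, and Pgam1 by -0.22 ± 0.07 and -0.21 ± 0.07. The glucose transporter genes Slc2a1 and Slc2a3 differed by -0.27 and 0.24 under activin and by -0.44 and 0.13 under SB431542. Gapdh differed by 0.05 ± 0.16 and -0.01 ± 0.16, with 1606 and 1267 FPKM in Trim33-null EBs, against 1436 and 1329.9 FPKM in WT EBs under activin. Under activin, Hk1, Hk2, Gpi1, Pfkp, Pfkfb3 and Pgk1 differed by between -0.08 and 0.08. Tpi1 differed by -0.21, the main aldolase gene Aldoa by -0.30, its isoform Aldoc by -0.65 and Eno3 by -0.50. Under SB431542, Gpi1 and Pgk1 differed by -0.23 each, and Hk1, Hk2, Pfkp and Pfkfb3 by between -0.04 and 0.10. Tpi1 differed there by -0.38, Aldoa by -0.40, Aldoc by -0.79 and Eno3 by -0.45. Groups under SB431542 did not overlap for Gpi1, Tpi1, Aldoa, Aldoc and Eno3. Eno1 had 390.2 and 325 FPKM in Trim33-null EBs under SB431542, against 459 and 462 FPKM in WT EBs, and differed by -0.28 under activin and -0.37 under SB431542 (limma adjusted p = 0.151 and 0.0855). Its near-identical copy Eno1b differed by 0.16 and 0.03 and did not pass. The sum of Eno1 and Eno1b overlapped between the genotypes under both treatments, so the direction of Eno1 is uncertain here.

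Groups did not overlap for 14 of the 32 genes (43.8%) under activin, against 57.5% of all genes tested, and for 18 (56.2%) under SB431542, against 61.8%. Both shares of the 32 genes are below those of all genes.

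**Figure D3:**
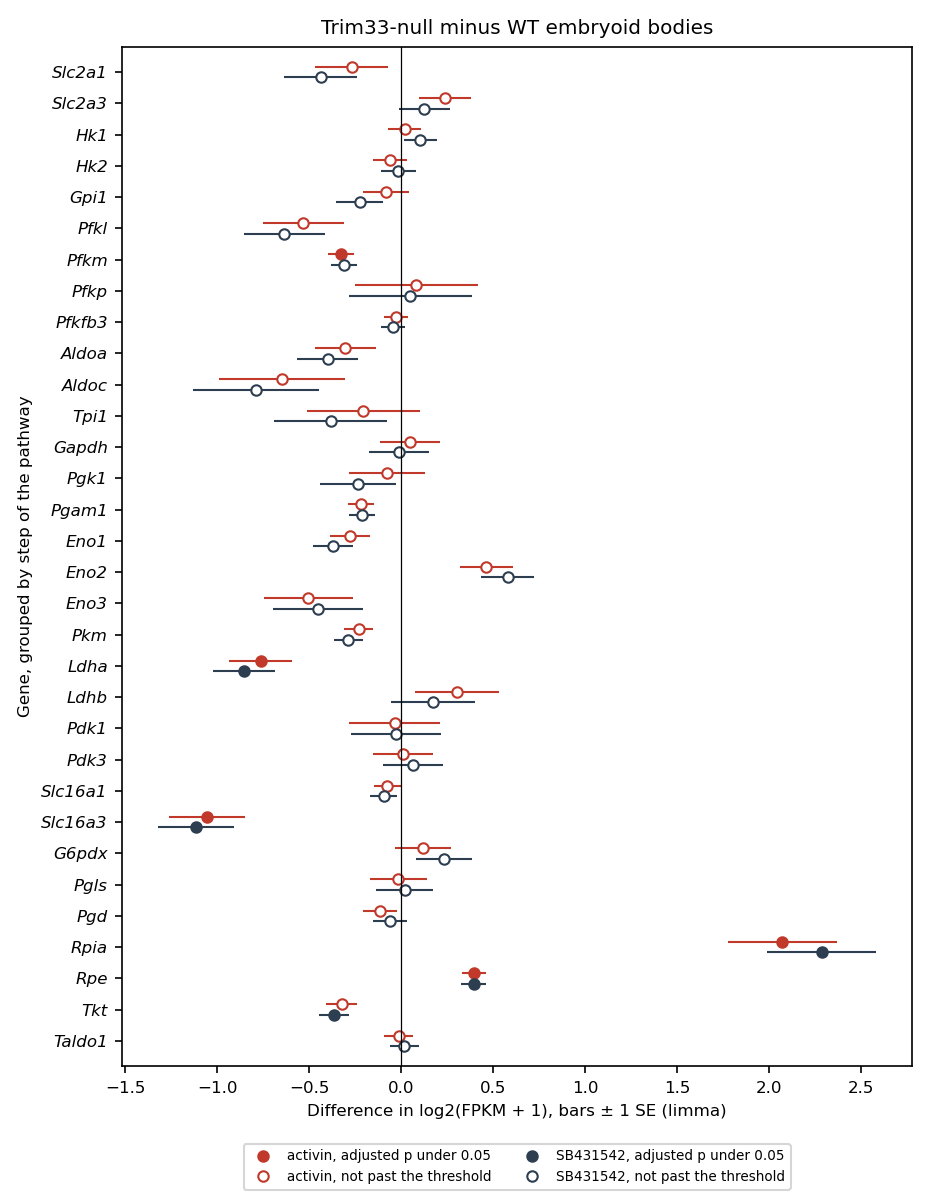
Difference between Trim33-null and WT EBs in log2(FPKM + 1) for each of the 32 genes, with bars of ±1 SE from limma, under activin (upper point of each row) and SB431542 (lower point). Filled points passed an adjusted p of 0.05. Rpia stands apart at 2.07 and 2.29, and Slc16a3 and Ldha are the lowest of the called genes.

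Some markers of cell state differed with the genotype. The summed FPKM of 5 epiblast markers was 105 to 161 in Trim33-null EBs, against 276 to 277 in WT EBs under activin, and 108 to 171, against 268 to 277, under SB431542. The summed FPKM of 7 fibroblast markers was 11.1 to 26.5 in Trim33-null EBs, against 6.70 to 10.4 in WT EBs under activin, and 11.7 to 32.8, against 6.85 to 10.3, under SB431542. Of these 7 markers 6 averaged at least 1 FPKM in Trim33-null EBs and 3 in WT EBs, and none was at 0 in an EB library. The summed FPKM of 4 primitive streak markers was 6.27 to 11.8 in Trim33-null EBs, against 20.7 to 32.9 in WT EBs under activin. Under SB431542 it was 2.85 to 6.32, against 6.97 to 14.5. Of these 4 markers, only Eomes was lower in Trim33-null EBs without overlap under both treatments, and T overlapped under both. Mixl1 and Gsc were lower without overlap under activin only. Under SB431542 both were at low levels, where Mixl1 overlapped and Gsc was slightly higher in Trim33-null EBs. Under activin the sums of the genotypes overlapped for 4 neuroectoderm markers, at 7.92 to 11.4 in Trim33-null EBs and 10.9 to 11.5 in WT EBs. The sums of 7 pluripotency markers also overlapped, at 343 to 389.6 and 355 to 382, but single markers differed. Zfp42 had 15.2 and 11.9 FPKM in Trim33-null EBs, against 6.49 and 5.23 FPKM in WT EBs. Esrrb, Klf4, Tbx3 and Sox2 were likewise higher in Trim33-null EBs without overlap, Pou5f1 was lower without overlap, and Nanog overlapped. The part of all these markers in the differences above was not tested, and in these bulk samples fewer cells of a type and less RNA per cell cannot be told apart.

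The genotype calls depended on single libraries. Under activin the 5 calls became 0 without Trim33-null activin II, WT activin I or WT activin II, 1 without WT SB431542 I or II, 2 without Trim33-null activin I and 3 without Trim33-null SB431542 I. Under SB431542 the 5 became 0 without Trim33-null SB431542 II, WT SB431542 I or WT SB431542 II, 1 without WT activin I or II and 2 without Trim33-null SB431542 I. With any 1 library left out, the difference of Rpia was 1.75 to 2.398 (limma adjusted p = 0.0233 to 0.0821) with activin and 1.92 to 2.65 (limma adjusted p = 0.0171 to 0.0799) with SB431542. Rpe ranged over limma adjusted p = 0.0305 to 0.15 under activin and 0.0343 to 0.171 under SB431542, Slc16a3 over 0.0339 to 0.213 and 0.0145 to 0.175, and Ldha over 0.049 to 0.25 and 0.0219 to 0.198. Pfkm under activin ranged over 0.0528 to 0.249 and Tkt under SB431542 over 0.0396 to 0.247. Rpia missed the threshold without any 1 of the 4 activin libraries in the first comparison, and without Trim33-null SB431542 II, WT SB431542 I or WT SB431542 II in the second. With limma run on only the 4 activin libraries 0 of the 32 genes were called, and under median-of-ratios scaling 2 rose and 1 fell under activin, and 2 rose and 2 fell under SB431542. The calls lost by scaling were those of Pfkm and Ldha under activin (limma adjusted p = 0.0584 and 0.057) and of Tkt under SB431542 (0.0505). With a replicate block by genotype and column numeral as a random effect, Pfkm and Ldha missed the threshold under activin (limma adjusted p = 0.0777 and 0.0661). The same block added Eno2 under SB431542 (limma adjusted p = 0.0333).

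The comparison of activin with SB431542 asks which of these genes respond to the receptor pathway within hours. In Trim33-null EBs 0 of 32 genes passed, where 0.115% of all genes tested did (limma), and in WT EBs 0 of 32 passed, against 0.221%. At an unadjusted p under 0.05 the counts were 0 of 32 in both genotypes, with 237 and 299 genes over the whole table. Differences in Trim33-null EBs ran from -0.23 to 0.21 and their 95% intervals from -0.95 to 1.01. In WT EBs differences ran from -0.24 to 0.10 and their intervals from -0.79 to 0.87. Smaller responses were not detectable with these libraries.

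Slc2a3, the high-affinity glucose transporter GLUT3, had 74.2 and 63.0 FPKM with activin and 57.8 and 59.8 FPKM with SB431542 in Trim33-null EBs (0.21 ± 0.14, limma adjusted p = 1). In WT EBs it had 64.7 and 51.8 FPKM with activin and 49.6 and 58.3 FPKM with SB431542, so the groups overlapped there. Pfkfb3, which makes the activator of phosphofructokinase, had 1.78 and 1.82 FPKM with activin and 1.62 and 1.61 FPKM with SB431542 in Trim33-null EBs, and 1.85 and 1.86 FPKM, against 1.58 and 1.83 FPKM, in WT EBs. Its differences of 0.10 ± 0.06 and 0.08 ± 0.06 did not pass (limma adjusted p = 1 for both), although groups did not overlap in either genotype. Slc2a1, the main glucose transporter GLUT1, had 83.2 and 62.2 FPKM with activin, against 74.8 and 76.6 FPKM with SB431542, in Trim33-null EBs. In WT EBs it had 95.4 and 79.3 FPKM with activin, against 87.3 and 121 FPKM with SB431542 (-0.24 ± 0.20, limma adjusted p = 1). Within each direction, the other genes among the 3 with the smallest p in Trim33-null EBs were Pkm at 0.09, Eno2 at -0.21, Rpia at -0.23 and Pgd at -0.06, and those in WT EBs were Hk1 at 0.09, Eno2 at -0.09 and Slc16a1 at -0.02. Pkm had 799.9 and 719.9 FPKM with activin and 747 and 684 FPKM with SB431542 in Trim33-null EBs, and Pgd 16.6 and 14.8 FPKM, against 17.5 and 15.3 FPKM. Hk1 had 1.56 and 1.39 FPKM with activin and 1.20 and 1.47 FPKM with SB431542 in WT EBs, and Slc16a1 25.6 and 24.4 FPKM, against 24.0 and 26.8 FPKM. Groups of all 4 overlapped. Groups did not overlap for 4 of 32 genes in Trim33-null EBs, against 17.1% of all genes, and for 2 of 32 in WT EBs, against 28.3%.

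The difference in activin response between the genotypes was tested as an interaction. It passed for 0 of 32 genes, and 0% of all genes tested passed (limma), with 24 of them and 0 of the 32 at an unadjusted p under 0.05. The Trim33-null response minus the WT response ran from -0.21 for Rpia to 0.18 for Tpi1, the triose phosphate isomerase gene, with 95% intervals between -1.22 and 1.31. The 3 genes with the smallest p in each direction were Gpi1 at 0.14 ± 0.18, Eno1 at 0.09 ± 0.15 and Slc2a1 at 0.17 ± 0.28, and Hk1 at -0.08 ± 0.13, Eno2 at -0.12 ± 0.20 and G6pdx at -0.11 ± 0.22 (limma adjusted p = 1 for each). The genotype difference of Pfkm, called under activin alone, and that of Tkt, called under SB431542 alone, were thus not shown to depend on treatment (-0.02 ± 0.10 and 0.04 ± 0.12, limma adjusted p = 1 for both).

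EBs and ESCs with activin were compared last. These comparisons change cell state and cell line together, since the EBs are of a C57Bl/6J background and the ESCs are E14. For Trim33-null EBs the genotype changes as well, since the series has no RNA-seq library of Trim33-null ESCs. Both EB groups are set against the same 2 ESC libraries, so their values are given side by side. In Trim33-null EBs 7 of 32 genes rose and 7 fell (43.8%), where 59.8% of the 11661 genes tested were called, 30.2% higher and 29.6% lower (limma). In WT EBs 10 rose and 6 fell (50%), against 56.9% of all genes, 30.5% higher and 26.4% lower. The median difference of the 32 genes was -0.03 in Trim33-null EBs and 0.17 in WT EBs, against 0.02 and 0.04 over all genes. The groups did not overlap for 24 of 32 genes in Trim33-null EBs, against 81% of all genes, and for 27 in WT EBs, against 84.7%.

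The hexokinase genes fell in both EB genotypes. Hk2 had 12.2 and 10.3 FPKM in Trim33-null EBs and 12.4 and 11.1 FPKM in WT EBs, against 23.0 and 18.7 FPKM in ESCs. Its differences from ESCs were -0.84 ± 0.11 and -0.78 ± 0.11 (SE, limma adjusted p = 0.000617 and 0.000845). Hk1 had 1.53 and 1.49 FPKM in Trim33-null EBs and 1.56 and 1.39 FPKM in WT EBs, against 2.503 and 2.02 FPKM in ESCs (-0.37 and -0.39, limma adjusted p = 0.0129 and 0.0109). Gpi1, the next enzyme in the path, rose: it had 53.3 and 45.4 FPKM in Trim33-null EBs and 56.0 and 48.6 FPKM in WT EBs, against 32.1 and 28.5 FPKM in ESCs (0.68 and 0.77, limma adjusted p = 0.00229 and 0.00131). No EB library reached either ESC library for the hexokinase genes, and for Gpi1 every EB library was above both ESC libraries.

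At the phosphofructokinase step Pfkp fell most. It had 3.45 and 1.39 FPKM in Trim33-null EBs and 2.60 and 1.64 FPKM in WT EBs, against 10.2 and 9.22 FPKM in ESCs, with differences of -1.71 ± 0.31 and -1.80 ± 0.31 (limma adjusted p = 0.00231 and 0.00183). Its share of the phosphofructokinase FPKM was 7.23% ± 2.6 in Trim33-null EBs and 4.78% ± 0.86 in WT EBs, against 21.2% ± 0.18 in ESCs (SD, n = 2 each). Pfkm had 6.78 and 5.84 FPKM in ESCs and rose in WT EBs by 0.31 ± 0.08 (limma adjusted p = 0.0139), with -0.02 ± 0.08 in Trim33-null EBs. Pfkfb3 had 1.53 and 1.52 FPKM in ESCs, and rose in WT EBs by 0.18 ± 0.06 (limma adjusted p = 0.0358), with 0.15 ± 0.06 in Trim33-null EBs (limma adjusted p = 0.0607).

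In lower glycolysis, Eno1 had 407 and 352 FPKM in Trim33-null EBs and 461 and 457 FPKM in WT EBs, against 307 and 254 FPKM in ESCs (0.44 and 0.72, limma adjusted p = 0.016 and 0.00173). The direction of Eno1 is uncertain, because the table also lists its near-identical copy Eno1b at 755 to 946 FPKM, which did not pass. The sum of both was 1353 and 1178 FPKM in Trim33-null EBs and 1245 and 1254 FPKM in WT EBs, against 1251 and 1041 FPKM in ESCs, so EB and ESC libraries overlapped. Pgk1, listed beside a copy named Pgk1-rs7, is uncertain for the same reason and did not pass in any comparison. How reads shared with such copies were counted is not stated in the labels. Eno2 had 1.30 and 1.69 FPKM in Trim33-null EBs and 0.644 and 0.984 FPKM in WT EBs, against 0.192 and 0.205 FPKM in ESCs (1.05 ± 0.13 and 0.59 ± 0.13, limma adjusted p = 0.00042 and 0.00619). Its WT activin and ESC values were all under 1 FPKM. It was therefore tested only because other libraries, chiefly the Trim33-null ones where it was highest, reached 1 FPKM. Eno3, the muscle enolase, had 2.10 and 2.23 FPKM in Trim33-null EBs and 4.62 and 2.58 FPKM in WT EBs, against 4.82 and 4.99 FPKM in ESCs. It fell in Trim33-null EBs (-0.90 ± 0.22, limma adjusted p = 0.0101) and did not pass in WT EBs (-0.40 ± 0.22, limma adjusted p = 0.165).

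Pkm had 799.9 and 719.9 FPKM in Trim33-null EBs and 914 and 869 FPKM in WT EBs, against 671 and 581 FPKM in ESCs (0.28 and 0.51, limma adjusted p = 0.03 and 0.0022). Pgam1 had 398 and 386 FPKM in Trim33-null EBs and 472 and 441 FPKM in WT EBs, against 475 and 459.7 FPKM in ESCs. It fell in Trim33-null EBs (-0.25 ± 0.07, limma adjusted p = 0.0126), and its -0.03 ± 0.07 in WT EBs did not pass. Slc2a3 had 53.1 and 50.7 FPKM in ESCs and rose in Trim33-null EBs (0.39 ± 0.13, limma adjusted p = 0.0314), while its 0.16 ± 0.13 in WT EBs did not pass (limma adjusted p = 0.333).

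Among the genes of pyruvate fate, Ldhb changed most. It had 149 and 105 FPKM in Trim33-null EBs and 115 and 88.7 FPKM in WT EBs, against 41.4 and 43.5 FPKM in ESCs (1.53 ± 0.21 and 1.23 ± 0.21, limma adjusted p = 0.000628 and 0.00174). Ldha had 295 and 287 FPKM in ESCs, a level between those of both EB genotypes. It fell in Trim33-null EBs (-0.44 ± 0.16, limma adjusted p = 0.0395) and had 0.32 ± 0.16 in WT EBs, which did not pass (limma adjusted p = 0.114). The ratio of Ldha to Ldhb FPKM was 1.66 and 1.76 in Trim33-null EBs and 3.52 and 3.68 in WT EBs, against 7.11 and 6.59 in ESCs. Slc16a3 had 17.98 and 17.3 FPKM in ESCs, and rose in WT EBs (0.86 ± 0.19, limma adjusted p = 0.00608) but not in Trim33-null EBs (-0.20 ± 0.19, limma adjusted p = 0.385).

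In the non-oxidative pentose phosphate arm, Rpia rose in Trim33-null EBs (0.88 ± 0.27, limma adjusted p = 0.0238) and fell in WT EBs (-1.19 ± 0.27, limma adjusted p = 0.00699). Rpe had 12.7 and 13.4 FPKM in ESCs, fell in WT EBs (-0.47 ± 0.07, limma adjusted p = 0.00068) and differed by -0.07 ± 0.07 in Trim33-null EBs. Tkt had 31.6 and 27.9 FPKM in ESCs, rose in WT EBs (0.32 ± 0.09, limma adjusted p = 0.0156) and did not pass in Trim33-null EBs (limma adjusted p = 0.996). Taldo1 had 39.5 and 37.5 FPKM in Trim33-null EBs and 37.6 and 40.2 FPKM in WT EBs, against 44.9 and 45.1 FPKM in ESCs, and fell in both (-0.22 and -0.20, limma adjusted p = 0.0337 and 0.0443). In the oxidative arm, Pgd, the enzyme that yields ribulose 5-phosphate, had 16.6 and 14.8 FPKM in Trim33-null EBs and 16.5 and 17.6 FPKM in WT EBs, against 14.4 and 13.1 FPKM in ESCs. It rose in WT EBs (0.29 ± 0.09, limma adjusted p = 0.0256), and its 0.18 ± 0.09 in Trim33-null EBs did not pass (limma adjusted p = 0.123).

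In the SB431542 libraries, which did not enter these 2 comparisons as a group, Hk2 had 11.6 and 11.2 FPKM in Trim33-null EBs, against 11.2 and 11.8 FPKM in WT EBs, and Gpi1 45.0 and 44.3 FPKM, against 47.8 and 57.6 FPKM. Pfkp had 2.78 and 1.61 FPKM in Trim33-null EBs, against 1.73 and 2.39 FPKM in WT EBs, and Ldhb 136 and 97.6 FPKM, against 100.4 and 104 FPKM. Pgam1 had 381 and 383 FPKM in Trim33-null EBs, against 422 and 464 FPKM in WT EBs, and Eno3 2.12 and 2.42 FPKM, against 4.38 and 2.72 FPKM. Groups overlapped for Hk2, Pfkp and Ldhb and not for Gpi1, Pgam1 and Eno3. Hk1 had 1.36 and 1.65 FPKM in Trim33-null EBs, against 1.20 and 1.47 FPKM in WT EBs, and Pkm 747 and 684 FPKM, against 849 and 897 FPKM. Pgd had 17.5 and 15.3 FPKM in Trim33-null EBs, against 16.8 and 17.6 FPKM in WT EBs, and Taldo1 40.2 and 35.8 FPKM, against 37.0 and 37.9 FPKM. Among these 4 only Pkm had groups that did not overlap. None of the 10 differed between treatments at the threshold.

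**Figure D4:**
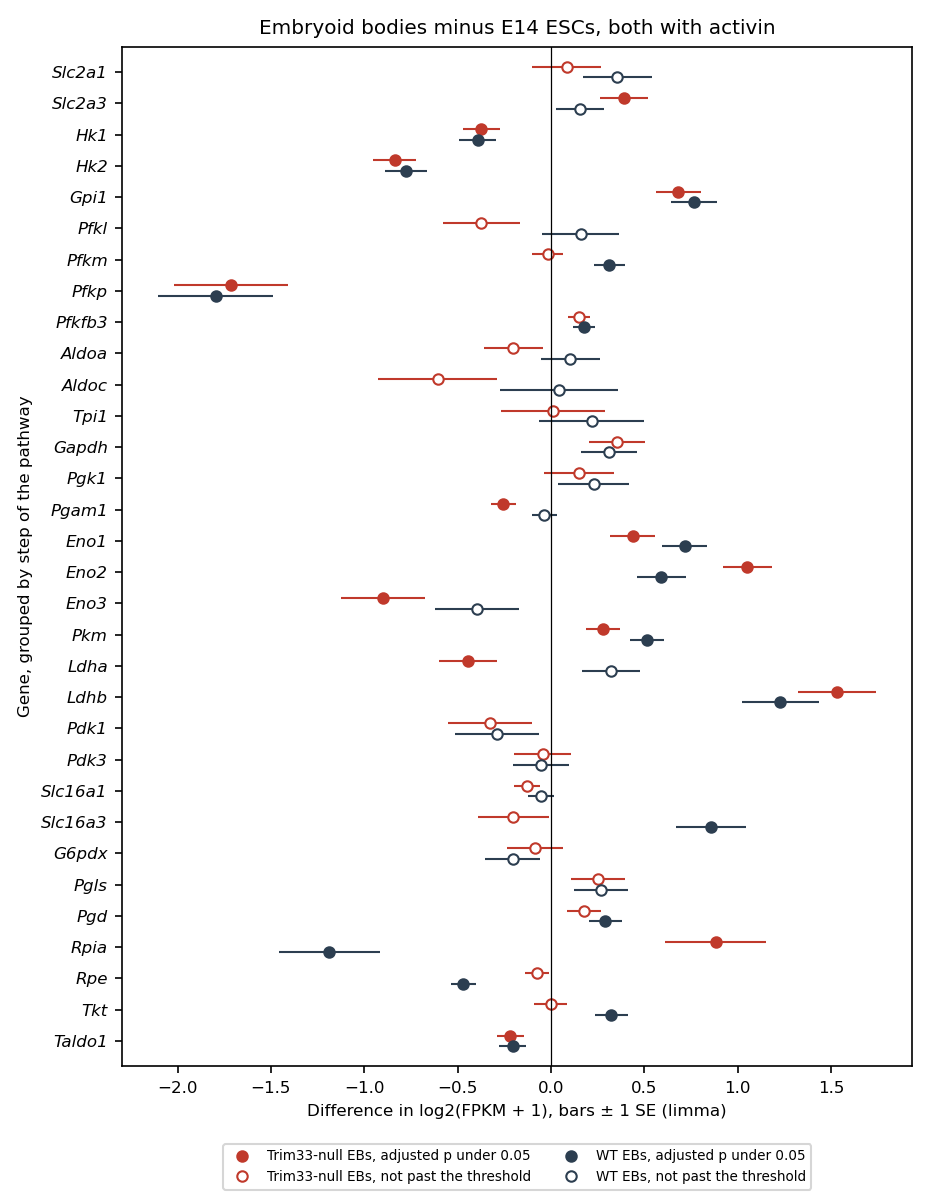
Difference between EBs and E14 ESCs, both with activin, in log2(FPKM + 1) for each of the 32 genes, with bars of ±1 SE from limma, for Trim33-null EBs (upper point of each row) and WT EBs (lower point). Filled points passed an adjusted p of 0.05. Pfkp is lowest at -1.71 and -1.80, Ldhb is highest at 1.53 and 1.23, and Rpia lies on opposite sides of 0.

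Scaling changed the split of these calls. Under median-of-ratios scaling 5 of 32 genes rose and 9 fell in Trim33-null EBs, and 6 rose and 8 fell in WT EBs, while the median over all genes moved to -0.07 in both, against 0.02 and 0.04 with the values as deposited. The calls lost were those of Slc2a3 and Pkm in Trim33-null EBs (limma adjusted p = 0.0978 and 0.137) and of Tkt, Pfkfb3, Pgd and Pfkm in WT EBs (0.0778 to 0.212). With any 1 of the 10 libraries left out, the calls of Hk2, Eno2, Pfkp, Ldhb and Gpi1 were kept in both comparisons. In WT EBs those of Slc16a3, Rpe, Pkm, Rpia and Eno1 were also kept. Eno2 entered the comparison of WT EBs only through libraries outside it, since its WT activin and ESC values were all under 1 FPKM. In WT EBs, Tkt, Taldo1, Pfkfb3 and Pgd missed the threshold with WT activin I or WT activin II left out, joined by Pfkm without library I and by Hk1 without library II (limma adjusted p = 0.0517 to 0.197). Taldo1, Pfkfb3 and Hk1 missed it without ESC library I (0.0808 to 0.131), and Tkt, Taldo1, Pfkfb3, Pgd and Pfkm without ESC library II (0.093 to 0.145). Taldo1 also missed it without Trim33-null activin I, WT SB431542 I or WT SB431542 II (0.0512 to 0.074).

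In Trim33-null EBs, Slc2a3, Pkm, Rpia and Eno1 missed the threshold without Trim33-null activin I (limma adjusted p = 0.077 to 0.147), and Pgam1, Taldo1 and Ldha without Trim33-null activin II (0.0608 to 0.213). Taldo1 and Ldha missed it without WT SB431542 I or WT SB431542 II (0.0584 to 0.0597). Slc2a3, Pgam1, Taldo1, Hk1, Rpia and Ldha missed it without ESC library I (0.0687 to 0.141), and Slc2a3, Taldo1, Pkm, Rpia, Eno3, Ldha and Eno1 without ESC library II (0.0548 to 0.176). Without Trim33-null activin II the difference of Ldha was -0.23 and without ESC library II that of Pkm was 0.18. The 14 calls in Trim33-null EBs became 8 without ESC library I and 7 without ESC library II.

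Libraries of a group differed from each other along the same pathway. In WT EBs under activin, 27 of 32 genes were higher in library I than in II, against 43.9% of all genes tested. In WT EBs under SB431542 the order was the other way, with 28 of 32 genes higher in library II than in I, against 59.1% of all genes. A list of 16 measured hypoxia targets and regulators moved with them: 15 of 16 were higher in library I under activin, and 16 of 16 in library II under SB431542. Bnip3, a mitophagy gene that HIF-1 induces, named after its values were seen, had 29.8 and 16.8 FPKM in WT EBs under activin and 18.05 and 29.7 FPKM under SB431542. In Trim33-null EBs library I was higher for 24 of 32 genes and 13 of 16 hypoxia genes under activin, against 51.8% of all genes, and for 20 of 32 and 6 of 16 under SB431542, against 53.6%. In ESCs library I was higher for 24 of 32 genes, against 56.3% of all genes, and for 11 of 16. These are descriptions of pairs of libraries, and culture oxygen and density were not labelled.

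Trim33-null libraries also differed by column in both treatments. Column I was above column II under activin and under SB431542 for 18 of the 32 genes (56.2%), against 39.3% of all genes, among them Tpi1 with 178 and 97.7 FPKM under activin and 144 and 99.7 FPKM under SB431542. Column II was above column I in both for 7 of the 32 (21.9%), against 34.8% of all genes. These 7 were Pgk1, Eno2, Eno3, Pdk3, Slc16a1, G6pdx and Pgls, and they include all 3 X-linked genes of the pathway: Pgk1, Pdk3 and G6pdx. G6pdx had 13.8 and 18.2 FPKM in Trim33-null libraries I and II under activin and 15.1 and 19.0 FPKM under SB431542, against 13.8 and 15.2 and 14.2 and 14.3 FPKM in WT EBs. Pdk3 had 4.79 and 6.496 FPKM in Trim33-null libraries I and II under activin and 4.87 and 6.71 FPKM under SB431542. Over 310 genes of the X chromosome the median of column II minus column I was 0.27 under activin and 0.26 under SB431542 in Trim33-null EBs. Autosome medians there ran from -0.05 to 0.15 and from -0.08 to 0.13, with chromosome 18 not included. In WT EBs the same X medians were -0.00 and 0.01. The summed FPKM of the 7 fibroblast markers also differed by column, with 26.5 and 32.8 in column II and 11.1 and 11.7 in column I. The part of the X chromosome and of these markers in the column differences was not tested.

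**Figure D5:**
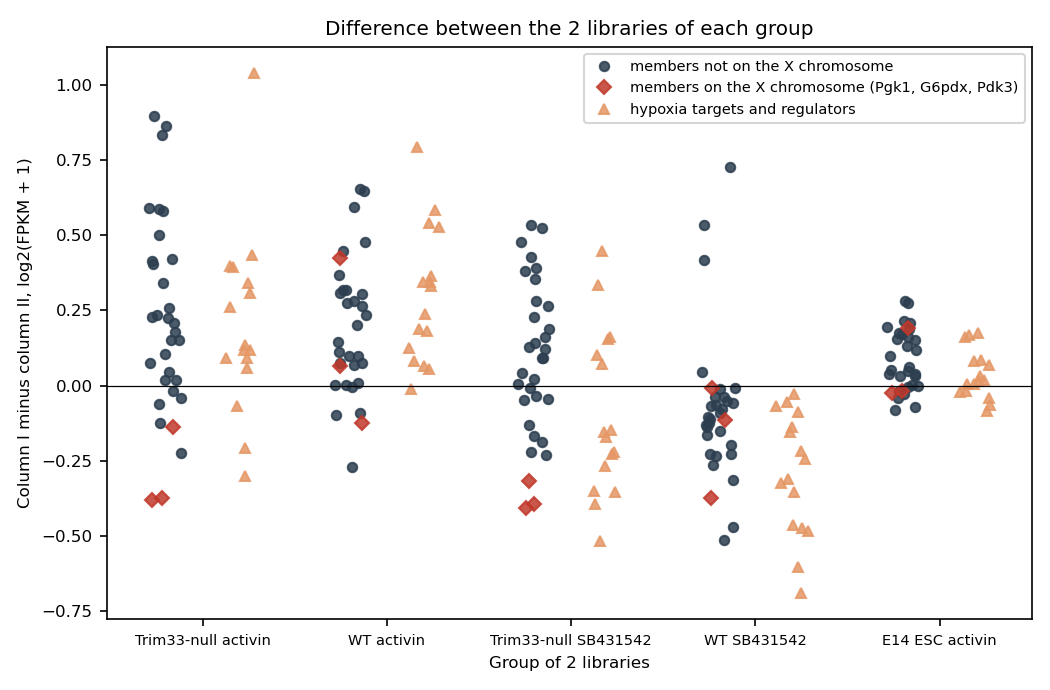
Difference between library I and library II of each group in log2(FPKM + 1), with 1 point per gene, for genes of the pathway on autosomes (circles), the 3 X-linked genes (diamonds) and 16 hypoxia targets and regulators (triangles). Most points are above 0 for WT activin and below 0 for WT SB431542, and the X-linked genes are below 0 in both Trim33-null groups.

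Genes around the pathway were counted from 7 lists with 98 symbols, of which 97 were in the table. Between Trim33-null and WT EBs under activin, where 3.4% of all genes were called higher and 4.68% lower, 1 of 7 tested pyruvate dehydrogenase and carrier genes rose and 1 of 11 regulators of glycolytic flux fell, and 0 did in the other 5 lists. The gene that rose is Pdhb, a subunit of the pyruvate dehydrogenase E1 enzyme, with 53.2 and 59.9 FPKM in Trim33-null EBs, against 34.3 and 36.4 FPKM in WT EBs (0.66 ± 0.08, limma adjusted p = 0.014). The gene that fell is Lin28b, an RNA-binding regulator of let-7 microRNAs, with 6.19 and 5.76 FPKM in Trim33-null EBs, against 10.4 and 9.79 FPKM in WT EBs (-0.67 ± 0.08, limma adjusted p = 0.0141). Both also passed under SB431542, at 0.70 ± 0.08 and -0.68 ± 0.08 (limma adjusted p = 0.0108 and 0.0123).

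Under SB431542, where 4.08% of all genes were called higher and 3.99% lower, 1 of 16 hypoxia genes and 1 of 8 gluconeogenesis and glycogen genes also rose. Epas1, which encodes HIF-2 alpha, had 4.08 and 2.72 FPKM in Trim33-null EBs, against 1.05 and 1.09 FPKM in WT EBs (1.07 ± 0.18, limma adjusted p = 0.0241), and 0.74 ± 0.18 under activin (limma adjusted p = 0.0602). Ugp2, for UDP-glucose synthesis, rose by 0.27 ± 0.06 (limma adjusted p = 0.0387). Between activin and SB431542, 0 genes of the 7 lists passed in either genotype. The nearest was Myc, a driver of glycolytic transcription, with 9.88 and 9.23 FPKM with activin, against 5.33 and 4.65 FPKM with SB431542 in Trim33-null EBs, and 8.38 and 11.1 FPKM, against 4.79 and 4.95 FPKM, in WT EBs. Its groups did not overlap, and its differences were 0.82 ± 0.13 and 0.86 ± 0.13 (limma adjusted p = 0.19 and 0.104).

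Against ESCs, 30.2% of all genes were called higher and 29.6% lower in Trim33-null EBs, and 30.5% higher and 26.4% lower in WT EBs. The gluconeogenesis and glycogen list had 4 of 8 genes higher and 1 lower in Trim33-null EBs, and 4 higher and 2 lower in WT EBs. Pygb, the brain glycogen phosphorylase, had 4.71 and 4.16 FPKM in Trim33-null EBs and 5.80 and 5.29 FPKM in WT EBs, against 1.33 and 1.13 FPKM in ESCs (1.28 and 1.55, limma adjusted p = 2.93e-05 and 9.73e-06). Gbe1, the glycogen branching enzyme, rose by 0.60 and 0.80 on the log2(FPKM + 1) scale. The hypoxia list had 3 of 16 higher and 2 lower in Trim33-null EBs, and 4 higher and 3 lower in WT EBs: Ddit4, an inhibitor of mTORC1, rose by 2.06 and 1.72, and Kdm3a, a histone demethylase, fell by 1.36 and 1.37 on the log2 scale. Of 11 regulators of glycolytic flux 3 rose and 6 fell in Trim33-null EBs, and 3 rose and 5 fell in WT EBs, among them Mycn at -1.57 and -1.12. The serine branch had 1 of 8 higher and 5 lower in Trim33-null EBs, and 1 higher and 3 lower in WT EBs. Pyruvate dehydrogenase and carrier genes had 0 of 7 higher and 1 lower in Trim33-null EBs, and 0 higher and 3 lower in WT EBs. Of 11 NADPH producers and nucleotide entry genes 3 rose and 3 fell in Trim33-null EBs, and 3 rose and 4 fell in WT EBs. Of 3 other isoforms tested, 0 rose and 2 fell in Trim33-null EBs, and 1 rose and 1 fell in WT EBs, the mutase gene Pgam2 being lower in both at -0.83 and -0.95.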

How the data were processed

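The authors deposited a table of FPKM values with 1 row per gene entry and 1 column for each of the 10 RNA-seq libraries. The tools Cufflinks 2.2.1, STAR 2.4.0, Bowtie2 2.2.2 and CASAVA 1.8 and the genome build mm9 appear per the submitters' processing notes, which state no roles here, and strand was not stated. All value columns were used. Of 29145 entries, 113 repeated symbols with lower means were left out. Among values under 0.06 FPKM, at most 9.38% shared 1 ratio between libraries within 0.02 on the log2 scale, so no whole reads were recovered. Libraries carry the numerals of the table's columns, since for Trim33-null libraries the titles use 1 and 4 instead and nothing ties I or II to either.

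All comparisons used limma 3.58.1 (R 4.3.3) with an intensity trend. Values entered as log2(FPKM + 1), a scale that understates changes of low genes. A gene was fitted if 2 or more libraries reached 1 FPKM: 11317 over the 8 EB libraries (4 residual degrees of freedom) and 11661 over all 10. Benjamini-Hochberg adjustment ran over all genes tested, at 0.05. The 32 genes and the 7 lists of related genes were chosen with earlier results of these data known. Values in every library are given for genes called in at least 1 comparison and for the 3 with the smallest p in each direction. From the lists, at most 3 genes per direction are named. Alternatives were another pseudocount, no filter, median-of-ratios scaling, only the groups compared, no trend, a replicate block, and each library left out. Promoters come from RefSeq, GRCm38.p6, and no coordinates of the authors' build were used.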

Additional observations from a re-analysis of the deposited data

Results flagged for a closer look

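The change from E14 ESCs to EBs under activin differed between the genotypes for 5 genes. The comparisons share the ESC libraries, so this is the test of Trim33-null against WT EBs under activin, seen from ESCs (limma with Benjamini-Hochberg adjustment over 11317 genes). The change in Trim33-null minus that in WT EBs was 2.07 for Rpia, which rose in Trim33-null and fell in WT EBs. It was 0.40 for Rpe, which fell in WT EBs and did not pass in Trim33-null EBs. For Slc16a3 it was -1.06 and for Pfkm -0.33, and both rose in WT EBs and did not pass in Trim33-null EBs. For Ldha it was -0.76, with a fall in Trim33-null EBs and no call in WT EBs. With the replicate block, Pfkm and Ldha missed the threshold between genotypes (limma adjusted p = 0.0777 and 0.0661), and Ldha between Trim33-null EBs and ESCs (0.0633). ESCs of the EB lines have no RNA-seq library in the series, so the changes above are differences from E14 and not changes measured within a line. The causes were not tested.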

How the results depend on the processing

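Read depth is unknown, groups hold 2 libraries, and RNA levels do not measure flux through the pathway. Under activin, the 5 genes called between Trim33-null and WT EBs became 2 with no filter on low values, 3 under median-of-ratios scaling, 0 with only the groups compared, and 0 to 4 with 1 library left out. Under SB431542 the 5 became 2 with no filter, 3 with only the groups compared, and 0 to 5 with 1 library left out. Without both Trim33-null libraries of column I, a choice made after seeing the data, each comparison called 12 genes, and without both of column II 3 were called under activin and 5 under SB431542. Calls of EBs against ESCs ranged from 7 to 15 in Trim33-null EBs and from 11 to 17 in WT EBs with 1 library left out. Of 699 repeats of 40 called differences, 557 kept the call, 142 missed the threshold and 0 reversed. The cause of these changes was not tested.

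With a replicate block by genotype and column numeral as a random effect, 3 genes were called between Trim33-null and WT EBs under activin and 6 under SB431542. Under activin Pfkm and Ldha missed the threshold (limma adjusted p = 0.0777 and 0.0661), and under SB431542 Eno2 was gained (0.0333). Between Trim33-null EBs and ESCs, Slc2a3, Pgam1 and Ldha missed it with the block (limma adjusted p = 0.142, 0.0508 and 0.0633), and Gapdh was gained (0.0379). Between WT EBs and ESCs, Pfkfb3 missed it (0.0726). The labels do not say that a numeral marks a shared source. Deviations of libraries with the same numeral were nonetheless correlated between the treatments across all 11317 genes tested, at 0.909 in Trim33-null and 0.459 in WT EBs. The 32 genes did not follow this in WT EBs, where 27 were higher in library I under activin but 28 in library II under SB431542. The calls without the block treat libraries with the same numeral as independent. For activin against SB431542 and for the difference in response, 0 genes were called with the block, whether random or fixed.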
